A study of Homo sapiens with 9 samples.

Results

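The genes described here are the targets of ATF4 together with the enzymes of serine synthesis and one-carbon metabolism in T47D cells given a progestin. T47D is an established line of human breast cancer cells with progesterone receptor. A list of 35 genes was matched by symbol to the array annotation, and 33 of them were measured by a probe set with that symbol alone, out of 18417 genes measured in this way. For ATF4, PSPH and MTHFD2, which have more than 1 such probe set, the one with the highest mean over all arrays was used. CBS was matched only by a probe set that carries a further symbol, so it has no value here, and GPT2 was matched by no probe set of the annotation used.

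All 9 arrays came from T47D cells with a retroviral pHUSH vector, which makes a hairpin RNA against ELF5 once doxycycline is added, and this vector was present in the control cells too. The first group received 10 nM ORG2058, a synthetic progestin that the labels call progesterone, with 0.1 µg/ml doxycycline for 4 days. The second group received 10 nM ORG2058 without doxycycline for 4 days, and the third received the ethanol vehicle without either agent. Each group had 3 arrays, described as independent experiments, and each array was made from cells pooled from 3 wells. The comparison of progestin with vehicle asks how the genes responded to ORG2058. That of progestin plus doxycycline with progestin asks what differed when ELF5, a transcription factor of mammary epithelium that progestin raises in these cells, was held down. The labels give no time for the vehicle, so time in culture and treatment cannot be told apart. No group received doxycycline without progestin, so an effect of doxycycline itself and one of the hairpin cannot be told apart either.

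ATF4 is the main transcription factor of the integrated stress response. Kinases that sense amino acid shortage, unfolded protein, viral RNA or lack of haem phosphorylate the initiation factor eIF2, which lowers general protein synthesis while ATF4 is translated more, so ATF4 is known to be controlled largely at translation and its RNA is only part of its activity. Its targets include transcription factors and feedback regulators of stress (DDIT3, TRIB3, CHAC1), enzymes that make serine, glycine, asparagine and proline, the mitochondrial folate enzymes that pass on one-carbon units, and many cytosolic tRNA synthetases. Serine made from glycolytic intermediates feeds glycine, folate-bound one-carbon units, purines and thymidylate, and PHGDH is known to be amplified or raised in a share of breast cancers.

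ATF4 acts through the C/EBP-ATF response element, searched here as TGATGNAA on both strands in the 250 bases before each RefSeq transcription start. Of the 28 measured genes with a promoter entry, 8 (28.57%) held a match in at least 1 of their start sites, against 3.886% of the 27305 genes in the same table. Because the list was made of known ATF4 targets and related enzymes, the higher share describes the list and is no result of these data. NUPR1, PSPH, YARS1, PYCR1 and SHMT2 had no entry. The core of the steroid receptor palindrome, ACANNNTGT, was in 0 of the 28 and in 5.64% of all genes. The stretches around the match are printed for the 4 of these 8 genes whose RNA changed with progestin, MTHFD1L, GOT1, IARS1 and CEBPG, and for ASNS and CHAC1, a classical amino acid response gene and a stress regulator. Each runs 5′ to 3′ on the strand of its gene, with the match in capitals, from RefSeq on GRCh38.p14, at chr6:150866307-150866414 (plus strand) for MTHFD1L, chr10:99430765-99430872 (minus) for GOT1, chr9:92293698-92293760 (minus) for IARS1, chr19:33374021-33374112 (plus) for CEBPG, chr7:97872419-97872526 (minus) for ASNS and chr15:40953221-40953319 (plus) for CHAC1.
MTHFD1L: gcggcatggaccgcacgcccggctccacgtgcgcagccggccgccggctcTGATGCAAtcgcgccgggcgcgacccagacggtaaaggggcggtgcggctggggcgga
GOT1: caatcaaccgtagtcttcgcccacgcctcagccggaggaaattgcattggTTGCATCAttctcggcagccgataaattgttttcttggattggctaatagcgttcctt
IARS1: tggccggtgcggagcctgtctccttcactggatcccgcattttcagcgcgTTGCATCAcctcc
CEBPG: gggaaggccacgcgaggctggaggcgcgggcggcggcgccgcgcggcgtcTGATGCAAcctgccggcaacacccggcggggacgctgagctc
ASNS: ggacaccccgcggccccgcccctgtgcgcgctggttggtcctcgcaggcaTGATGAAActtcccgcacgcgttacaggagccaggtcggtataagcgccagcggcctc
CHAC1: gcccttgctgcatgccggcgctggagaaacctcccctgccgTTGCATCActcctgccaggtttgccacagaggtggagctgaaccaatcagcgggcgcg
A match describes these letters and is not a binding site by itself. The other genes with a match were AARS1 and GARS1. Of the 8, 1 rose with progestin against vehicle (CEBPG), 3 fell (MTHFD1L, GOT1 and IARS1) and 4 did not pass the test, limma at an adjusted p of 0.05, which called 13.4% of all probe sets higher and 15.6% lower.

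**Figure D1:**
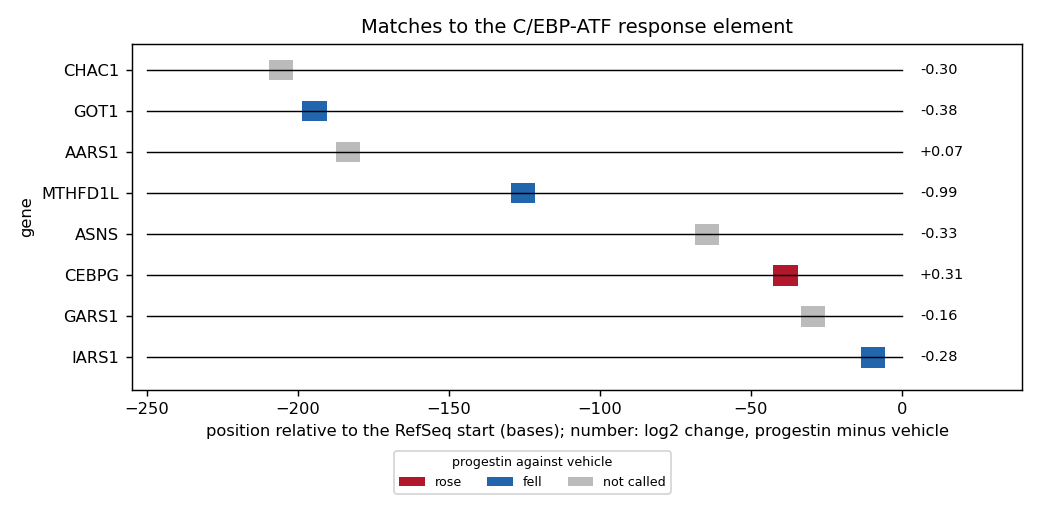
Position of each match to TGATGNAA on either strand in the 250 bases before the RefSeq start of 8 genes (x axis, bases relative to the start; 1 gene per line). Colour gives the call for progestin against vehicle and the number at the right its log2 change, from -0.99 in MTHFD1L to 0.31 in CEBPG; the matches lie between 6 and 209 bases before the start.

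Values are the deposited log2 signals, and a change is a difference of mean log2 signals, tested with limma over 21214 probe sets that carry a gene symbol, at a Benjamini-Hochberg adjusted p of 0.05. The medians of the 9 arrays lay between 7.19 and 7.28. ELF5 was at 10.44, 10.46 and 10.35 with progestin plus doxycycline, 11.31, 11.23 and 11.31 with progestin and 10.26, 10.21 and 10.05 with vehicle. Progestin raised ELF5 by 1.11 ± 0.0779 (SE, adjusted p = 2.06e-05), and with doxycycline it was lower by 0.87 than with progestin alone (log2 change -0.87, adjusted p = 0.0290), so the values go with the labels. PGR, the progesterone receptor gene, averaged 9.96 ± 0.0872 with progestin plus doxycycline, 9.63 ± 0.0445 with progestin and 11.91 ± 0.0210 with vehicle (SD, n = 3 each). Of 12 luminal epithelial markers, 11 lay above the median of all probe sets, and of 16 markers of immune, endothelial, stromal and basal cells 12 lay below it. Those above it were CDH5, COL1A1, KRT14 and CD14, and the leukocyte marker PTPRC was between 3.00 and 4.14 on all arrays. The summed linear signal of the markers of other cells was 10.94 to 11.12 on a log2 scale with progestin plus doxycycline, 10.99 to 11.08 with progestin and 10.88 to 11.08 with vehicle. Whether these markers have a part in any result was not tested, and in a bulk sample fewer cells of a type and less RNA per cell cannot be told apart.

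The vehicle arrays differed from each other in these genes, with replicate 3 low and replicate 2 high. Vehicle replicate 3 was the lowest of its group in 31 of the 33 genes (93.9%), all but DDIT4 and VLDLR, beside 49.9% of all probe sets tested, and it lay a median of 0.24 below the mean of the other vehicle arrays, beside 0.05 for all probe sets. CHAC1 was lower there by 0.73, DDIT3 by 0.55, CTH by 0.53, ASNS by 0.52 and TRIB3 by 0.51, and VLDLR was higher by 0.52. Vehicle replicate 2 was the highest of its group in 27 of the 33 (81.8%, beside 34.8% of all probe sets). It lay a median of 0.16 above the mean of the other vehicle arrays, beside 0.02 for all probe sets. Among the arrays with progestin plus doxycycline, replicate 2 was the highest in 26 of the 33 (78.8%, beside 47.7% of all probe sets) and replicate 3 the lowest in 27 (81.8%, beside 36.7%). Within the progestin arrays, replicate 2 was the lowest in 21 (63.6%), and it was the lowest in 44.6% of all probe sets too. These are counts over genes of the same arrays, and what set the arrays apart was not tested.

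**Figure D2:**
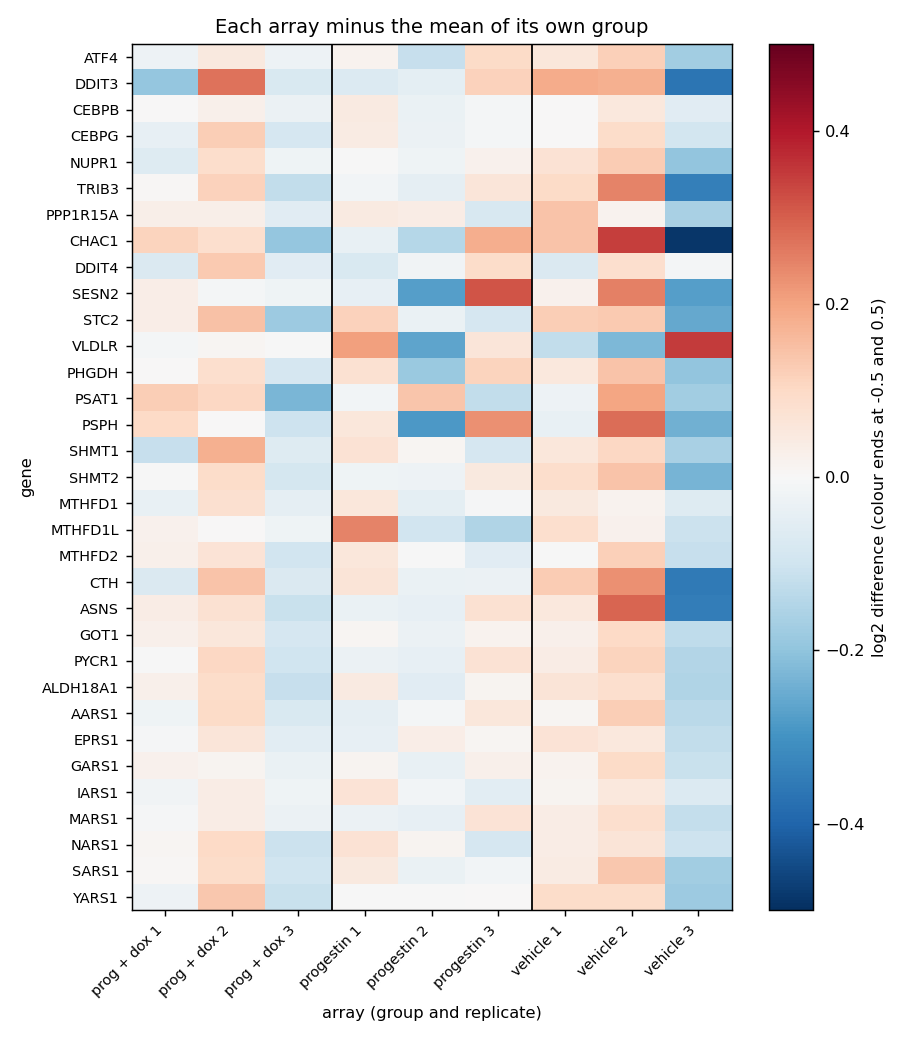
Deviation of each array from the mean of its own group (colour, log2 units) for the 33 genes (lines) on the 9 arrays (columns). The column of vehicle replicate 3 is below its group mean in nearly all genes and that of vehicle replicate 2 is mostly above. Among the arrays with progestin plus doxycycline, replicate 2 is mostly above and replicate 3 mostly below.

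Progestin lowered most enzymes of serine and one-carbon metabolism and raised most of the stress regulators. Of the 33 genes, 14 fell (42.4%), among them PSPH, PHGDH, STC2, PSAT1 and MTHFD1L, and 7 rose (21.2%), among them DDIT4, DDIT3, NUPR1 and TRIB3. Over all probe sets tested, 15.6% were called lower and 13.4% higher. The median change of the 33 genes was -0.25, beside 0.02 for all probe sets tested. Within the list, 8 of 9 measured serine and one-carbon enzymes fell and none rose, while 5 of 8 transcription factors and stress regulators rose and none fell. The 7 of 33 genes called with a change of at least 2-fold were DDIT4, DDIT3, NUPR1, PSPH, PHGDH, STC2 and PSAT1. Over all probe sets tested, 1131 of 21214 were called with such a change.

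**Figure D3:**
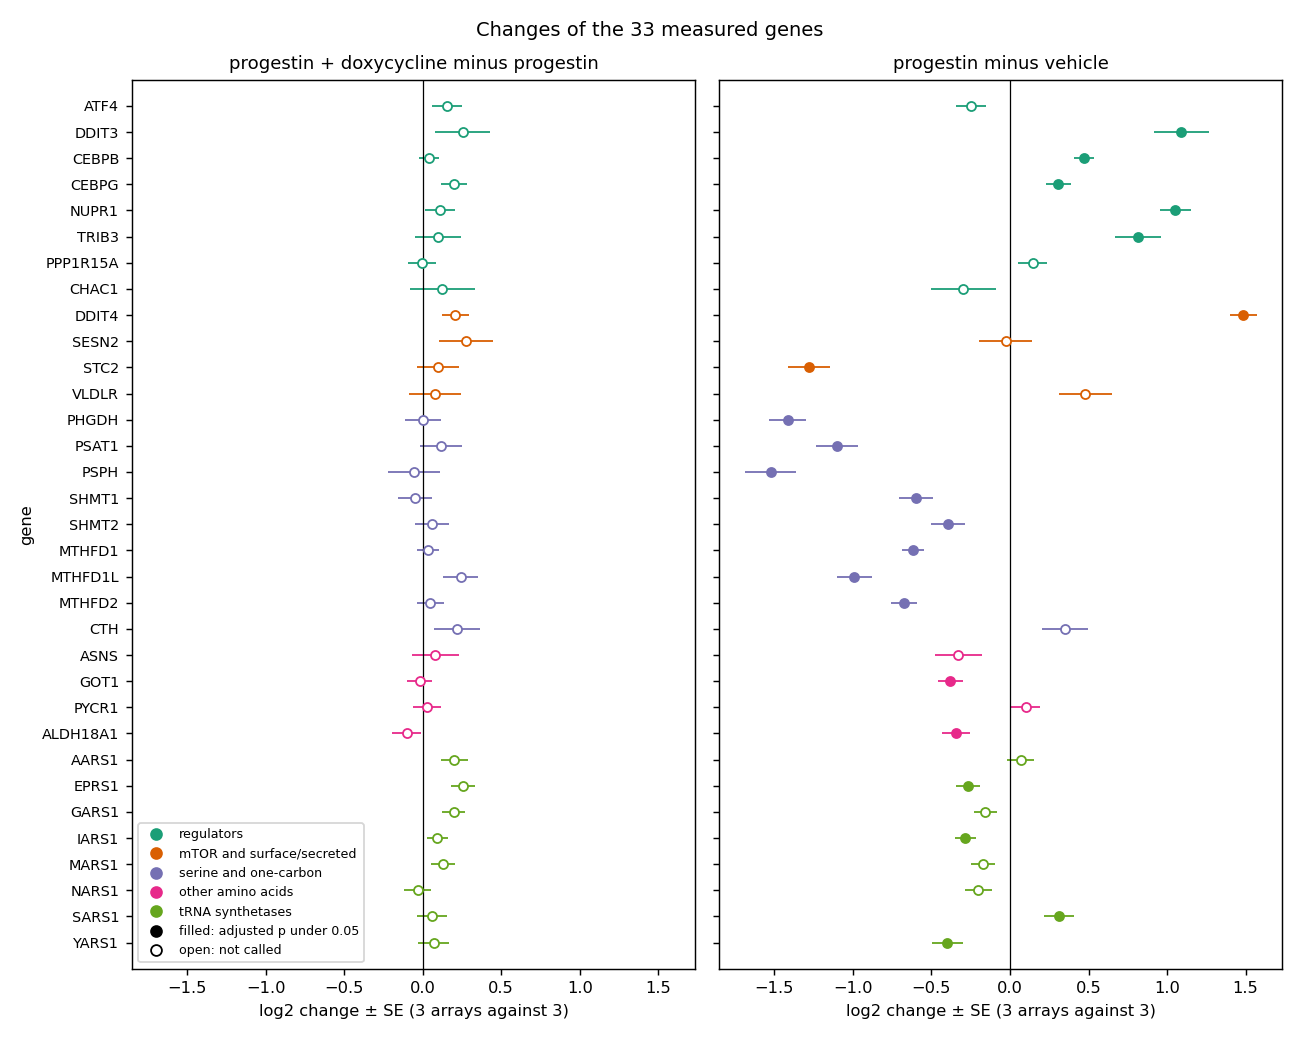
Log2 change of each of the 33 measured genes for progestin plus doxycycline against progestin (left) and progestin against vehicle (right); the x axis is the log2 change, bars are the SE of the limma fit and colours mark the role, with filled points for adjusted p under 0.05. The changes on the left lie between -0.10 and 0.28, and on the right the serine and one-carbon enzymes lie below 0 except CTH, with DDIT3, NUPR1 and TRIB3 above it.

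Serine synthesis from 3-phosphoglycerate takes 3 steps, and the RNA of all 3 enzymes fell by more than 1 log2 unit. PHGDH, which oxidises 3-phosphoglycerate in the first and committed step, was at 9.09, 9.17 and 9.002 with progestin plus doxycycline, 9.16, 8.90 and 9.20 with progestin and 10.55, 10.64 and 10.31 with vehicle. Every progestin-treated array was below every vehicle array. The log2 change with progestin was -1.41 ± 0.117 (SE, adjusted p = 4.99e-05), a 2.67-fold lower level. PSAT1, the aminotransferase of the next step, was at 9.13, 9.11 and 8.78 with progestin plus doxycycline, 8.88, 9.03 and 8.77 with progestin and 9.97, 10.19 and 9.82 with vehicle. Again no vehicle array reached down to a progestin-treated one, and the change was -1.10 ± 0.134 (adjusted p = 4.52e-04). PSPH, the phosphatase that releases serine, was at 8.17, 8.07 and 7.96 with progestin plus doxycycline, 8.18, 7.84 and 8.35 with progestin and 9.61, 9.92 and 9.40 with vehicle. It had the lowest change of the 33 genes, -1.52 ± 0.165 (adjusted p = 2.31e-04, 2.88-fold lower), with no overlap between the groups. Its other probe set changed by -1.54 (adjusted p = 2.12e-05). Probes for PSPH can also pick up RNA of closely related copies, which was not tested.

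The folate enzymes that carry serine-derived carbon units fell in both compartments. MTHFD1L, the mitochondrial formyltetrahydrofolate synthetase, was at 7.44, 7.42 and 7.40 with progestin plus doxycycline, 7.43, 7.08 and 7.03 with progestin and 8.26, 8.19 and 8.07 with vehicle. The vehicle arrays were the highest, and the change with progestin was -0.99 ± 0.111 (adjusted p = 2.86e-04). MTHFD2, the mitochondrial methylenetetrahydrofolate dehydrogenase, was at 10.43, 10.47 and 10.31 with progestin plus doxycycline, 10.41, 10.35 and 10.30 with progestin and 11.02, 11.14 and 10.91 with vehicle. It too was highest on the vehicle arrays without overlap (change -0.67, adjusted p = 5.21e-04), and its other probe set changed by -0.82 (adjusted p = 7.77e-05). The cytosolic trifunctional enzyme MTHFD1 averaged 9.60 ± 0.0696 with progestin plus doxycycline, 9.57 ± 0.0533 with progestin and 10.18 ± 0.0589 with vehicle (SD, n = 3 each), a change with progestin of -0.62 (adjusted p = 3.22e-04).

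SHMT1 and SHMT2 split serine into glycine and a one-carbon unit, in the cytosol and in mitochondria. SHMT1 was at 7.28, 7.58 and 7.33 with progestin plus doxycycline, 7.52, 7.46 and 7.37 with progestin and 8.10, 8.15 and 7.88 with vehicle. Its arrays did not overlap with vehicle, and the change with progestin was -0.60 (adjusted p = 0.00370). SHMT2 was at 10.28, 10.37 and 10.19 with progestin plus doxycycline, 10.20, 10.19 and 10.27 with progestin and 10.70, 10.75 and 10.38 with vehicle. The progestin arrays were all below the vehicle arrays. The change of SHMT2 with progestin was -0.39 ± 0.107 (adjusted p = 0.0255). CTH, which cleaves cystathionine to cysteine in transsulfuration, was the only one of the 9 with a positive change. It was at 6.39, 6.61 and 6.39 with progestin plus doxycycline, 6.31, 6.21 and 6.22 with progestin and 6.02, 6.12 and 5.54 with vehicle. The vehicle arrays were the lowest without overlap, but the change with progestin, 0.35, did not pass the test (adjusted p = 0.120), and that with progestin plus doxycycline against vehicle, 0.57, did (adjusted p = 0.0217). The CTH signal lay near that of COL1A2, among the markers of other cells, and whether it was above background was not tested.

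**Figure D4:**
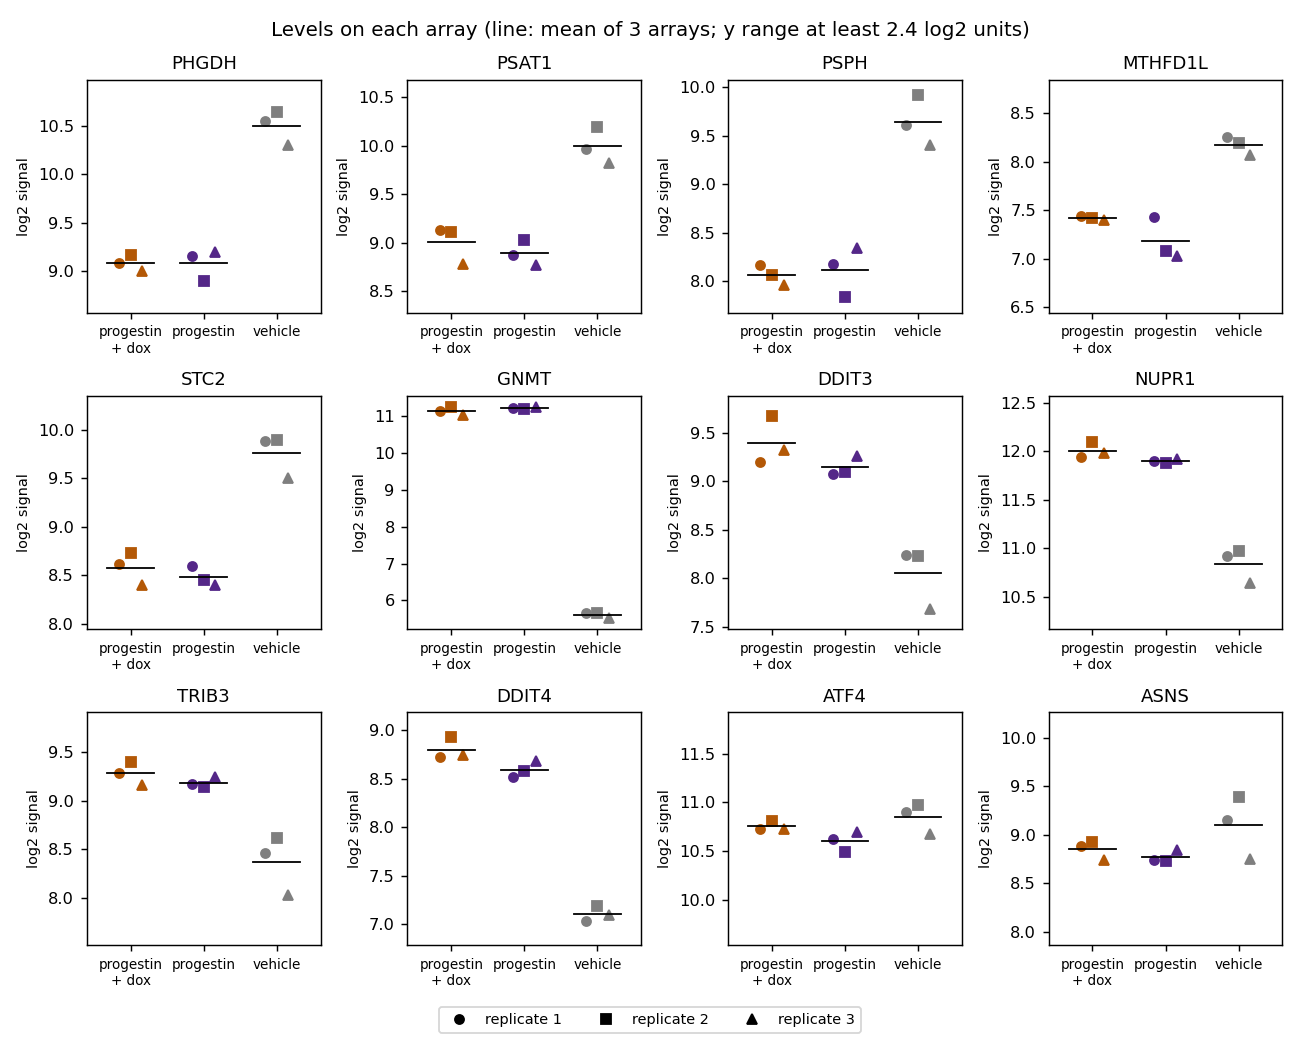
Log2 signal (y axis) of 11 of the 33 genes and GNMT on each of the 9 arrays by group; marker shape gives the replicate number and the line the mean of 3 arrays. In PHGDH, PSAT1, PSPH, MTHFD1L and STC2 all vehicle arrays lie above all progestin-treated arrays, in DDIT3, NUPR1, TRIB3, DDIT4 and GNMT below them, and in ATF4 and ASNS the groups overlap.

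ATF4 itself did not pass the test. Its probe set read 10.73, 10.81 and 10.73 with progestin plus doxycycline, 10.62, 10.49 and 10.70 with progestin and 10.91, 10.97 and 10.68 with vehicle. The progestin arrays overlapped the vehicle arrays through vehicle replicate 3, and the change was -0.25 ± 0.0962 (adjusted p = 0.0914). Its other probe set changed by -0.21 (adjusted p = 0.0935).

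Several transcription factors and feedback regulators downstream of ATF4 rose with progestin. DDIT3, the C/EBP-family factor also called CHOP, was at 9.20, 9.67 and 9.32 with progestin plus doxycycline, 9.08, 9.09 and 9.26 with progestin and 8.24, 8.23 and 7.69 with vehicle. All 3 vehicle arrays were below every progestin-treated array, and the change with progestin was 1.09 ± 0.176 (adjusted p = 0.00209, 2.13-fold). NUPR1, a small stress-induced chromatin protein, was at 11.94, 12.09 and 11.99 with progestin plus doxycycline, 11.90, 11.88 and 11.92 with progestin and 10.92, 10.97 and 10.65 with vehicle. Its groups were apart as in DDIT3, with a change of 1.05 ± 0.0959 (adjusted p = 8.78e-05). TRIB3, a pseudokinase that restrains ATF4 and AKT, was at 9.29, 9.40 and 9.16 with progestin plus doxycycline, 9.17, 9.14 and 9.24 with progestin and 8.46, 8.61 and 8.02 with vehicle. It changed by 0.82 ± 0.146 (adjusted p = 0.00361), again without overlap.

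CEBPB and CEBPG, dimer partners of ATF4, rose less. CEBPB averaged 9.71 ± 0.0271 with progestin plus doxycycline, 9.67 ± 0.0403 with progestin and 9.20 ± 0.0547 with vehicle, and changed by 0.47 (adjusted p = 8.20e-04). CEBPG averaged 8.79 ± 0.110 with progestin plus doxycycline, 8.59 ± 0.0367 with progestin and 8.29 ± 0.0928 with vehicle, and changed by 0.31 (adjusted p = 0.0234). PPP1R15A, also called GADD34, brings a phosphatase to eIF2 and so ends the response. Its mean was 7.06 ± 0.0494 with progestin plus doxycycline, 7.07 ± 0.0706 with progestin and 6.93 ± 0.154 with vehicle, a change of 0.14 with progestin that did not pass the test (adjusted p = 0.286). CHAC1, which degrades glutathione, was at 6.90, 6.87 and 6.59 with progestin plus doxycycline, 6.62, 6.52 and 6.84 with progestin and 7.10, 7.30 and 6.47 with vehicle. Vehicle replicate 3 lay below the progestin arrays and the other vehicle arrays above them, and the change of -0.30 did not pass the test (adjusted p = 0.338).

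DDIT4, also called REDD1, restrains mTORC1 through the TSC complex and is known as a target of glucocorticoid receptor, hypoxia and ATF4. It was at 8.73, 8.93 and 8.74 with progestin plus doxycycline, 8.52, 8.58 and 8.69 with progestin and 7.03, 7.19 and 7.10 with vehicle, and it had the highest change of the 33 genes. The vehicle arrays were all lower by more than 1 log2 unit, and the change was 1.48 ± 0.0864 (adjusted p = 7.94e-06, 2.80-fold). SESN2, a leucine sensor that also restrains mTORC1, averaged 8.65 ± 0.0280 with progestin plus doxycycline, 8.37 ± 0.298 with progestin and 8.40 ± 0.264 with vehicle. Its change of -0.03 did not pass the test (adjusted p = 0.923). STC2, a secreted glycoprotein known as an estrogen-responsive gene in breast cancer cells, was at 8.61, 8.73 and 8.40 with progestin plus doxycycline, 8.60, 8.45 and 8.40 with progestin and 9.88, 9.89 and 9.51 with vehicle. It fell by 1.28 ± 0.132 (adjusted p = 1.76e-04) without overlap. VLDLR, a lipoprotein receptor, was at 5.91, 5.93 and 5.91 with progestin plus doxycycline, 6.04, 5.58 and 5.90 with progestin and 5.24, 5.14 and 5.71 with vehicle. Here vehicle replicate 3 was the highest vehicle array, and the change of 0.48 did not pass the test (adjusted p = 0.0645). The VLDLR signal lay near that of markers of other cells such as PECAM1 and VIM, and whether it was above background was not tested.

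Among the other amino acid enzymes, GOT1, the cytosolic aspartate aminotransferase, fell by 0.38 (adjusted p = 0.00809). ALDH18A1, which makes the proline precursor pyrroline-5-carboxylate, fell by 0.34 (adjusted p = 0.0222). GOT1 averaged 10.56 ± 0.0744 with progestin plus doxycycline, 10.58 ± 0.0240 with progestin and 10.96 ± 0.116 with vehicle, and ALDH18A1 averaged 9.94 ± 0.106, 10.04 ± 0.0520 and 10.38 ± 0.130 in the same groups. ASNS, the asparagine synthetase and a classical target of ATF4, was at 8.89, 8.92 and 8.74 with progestin plus doxycycline, 8.74, 8.73 and 8.85 with progestin and 9.15, 9.39 and 8.75 with vehicle. Vehicle replicates 1 and 2 were above all progestin arrays and replicate 3 was among them, and the change of -0.33 did not pass the test (adjusted p = 0.143). PYCR1, which completes proline synthesis in mitochondria, averaged 9.38 ± 0.101 with progestin plus doxycycline, 9.36 ± 0.0627 with progestin and 9.26 ± 0.133 with vehicle, with a change of 0.10 (adjusted p = 0.470).

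The 8 cytosolic tRNA synthetases, which load amino acids onto their tRNAs, changed by -0.40 to 0.31 with progestin, 6 of them downward. Of the 8, 3 were called lower (37.5%, beside 15.6% of all probe sets) and 1 higher (12.5%, beside 13.4%). YARS1 (tyrosine) fell by 0.40 (adjusted p = 0.0169), IARS1 (isoleucine) by 0.28 (adjusted p = 0.0148) and EPRS1 (glutamate and proline) by 0.27 (adjusted p = 0.0306). SARS1 (serine) was the 1 that rose, by 0.31 (adjusted p = 0.0405). It averaged 10.63 ± 0.0956 with progestin plus doxycycline, 10.58 ± 0.0421 with progestin and 10.27 ± 0.159 with vehicle (SD, n = 3 each). YARS1 was at 9.83, 9.99 and 9.74 with progestin plus doxycycline, 9.78, 9.78 and 9.79 with progestin and 10.27, 10.28 and 10.00 with vehicle, so that the vehicle arrays were higher without overlap. AARS1 (alanine), GARS1 (glycine), MARS1 (methionine) and NARS1 (asparagine) changed by 0.07, -0.16, -0.17 and -0.20 and did not pass the test. For progestin plus doxycycline, progestin and vehicle in that order, the means were 11.30 ± 0.0893, 11.10 ± 0.0520 and 11.03 ± 0.129 in AARS1. They were 10.82 ± 0.0351, 10.69 ± 0.0605 and 10.86 ± 0.107 in MARS1, and 9.92 ± 0.104, 9.96 ± 0.0780 and 10.16 ± 0.0897 in NARS1.

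Without vehicle replicate 3, progestin against vehicle gave 6 genes higher and 19 lower, in place of 7 and 14. ATF4 (change -0.34, adjusted p = 0.0224), ASNS (-0.50, adjusted p = 0.0100), CHAC1 (-0.54, adjusted p = 0.0258), GARS1 (-0.21) and MARS1 (-0.23) then passed as lower and VLDLR (0.65) as higher, while CEBPG (adjusted p = 0.0571) and SARS1 (adjusted p = 0.0814) no longer passed. The 8 serine and one-carbon enzymes passed without this array too, with PHGDH at -1.51 and PSPH at -1.64, but SHMT2 did not pass without vehicle replicate 1, vehicle replicate 2, progestin replicate 1 or progestin replicate 2, or with only the groups compared fitted (adjusted p up to 0.0906). Without vehicle replicate 3, DDIT3 rose by 0.91 (adjusted p = 0.00329). Without vehicle replicate 1, and likewise without replicate 2, 9 genes were called lower. The shares of all probe sets called without a vehicle array are not given here, so a general shift in calls cannot be told apart. In 14 genes the call stood under all 19 other settings tried, the 5 higher being DDIT4, DDIT3, NUPR1, TRIB3 and CEBPB, and the 9 lower PSPH, PHGDH, PSAT1, STC2, MTHFD1L, MTHFD2, MTHFD1, SHMT1 and GOT1. The other 7 lost their call in at least 1 setting, SARS1 in 9, EPRS1 in 8, CEBPG and SHMT2 in 5 each, ALDH18A1 in 4, and IARS1 and YARS1 in 3 each. The share of all probe sets that kept their call in every setting is not given here either, so these counts have no background beside them.

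Adding doxycycline changed none of the 33 genes past the threshold. limma called 4 of 21214 probe sets in either direction (0.0189%) in progestin plus doxycycline against progestin and 0 of the 33 genes, of which 5 (15.2%) had an unadjusted p under 0.05, beside 2969 of the 21214 probe sets (14%). The changes ran from -0.10 to 0.28 with a median of 0.09, and the smallest adjusted p was 0.212, for EPRS1. PHGDH changed by 0.00 ± 0.117, PSAT1 by 0.12 ± 0.134, PSPH by -0.05 ± 0.165, DDIT3 by 0.25 ± 0.176 and DDIT4 by 0.21 ± 0.0864 (SE). The arrays of the groups did not overlap in 10 genes, all higher with doxycycline, beside 14.8% of all probe sets higher and 6.43% lower. They were ATF4, CEBPG, NUPR1, DDIT4, CTH and 5 of the 8 synthetases (AARS1, EPRS1, GARS1, IARS1 and MARS1). With 3 arrays against 3, the exact two-sided permutation p of each is 0.1, the smallest that this design allows.

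The synthetases with separate groups differed by small amounts. EPRS1 was at 10.80, 10.86 and 10.75 with progestin plus doxycycline, against 10.51, 10.58 and 10.56 with progestin. GARS1 was at 11.59, 11.58 and 11.54 with progestin plus doxycycline, against 11.39, 11.34 and 11.40 with progestin. Both were higher on every array with doxycycline, by 0.25 ± 0.0763 (adjusted p = 0.212) and 0.20 ± 0.0723 (SE, adjusted p = 0.297). When the variance prior followed the signal level and was estimated robustly, both passed, with an adjusted p of 0.0233 for EPRS1 and 0.0443 for GARS1, in a setting that called 2.25% of all probe sets higher. ATF4 read higher with doxycycline on both of its probe sets, by 0.15 (adjusted p = 0.526) and 0.32 (adjusted p = 0.168).

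Progestin plus doxycycline against vehicle called 9 of the 33 genes higher and 12 lower, beside 15.6% and 12.5% of all probe sets. This comparison shares its vehicle arrays with that of progestin alone, so the values are set side by side and are no separate evidence. PHGDH changed by -1.41 with progestin plus doxycycline and -1.41 with progestin, PSPH by -1.58 and -1.52, PSAT1 by -0.99 and -1.10, and MTHFD1L by -0.75 and -0.99. DDIT4 changed by 1.69 with progestin plus doxycycline and 1.48 with progestin, DDIT3 by 1.34 and 1.09, and VLDLR by 0.56 and 0.48. The 9 higher genes were the 7 called with progestin, with CTH and VLDLR added, and the 12 lower were those called with progestin less IARS1 and EPRS1. IARS1 changed by -0.19 with progestin plus doxycycline (adjusted p = 0.0735) and EPRS1 by -0.01 (adjusted p = 0.927). Several of these calls were close to the threshold: over the 19 other settings SHMT2 (adjusted p = 0.0491) lost its call in 11, YARS1 in 9, VLDLR in 7 and CTH in 2. Of the genes not called, AARS1 (0.27, adjusted p = 0.0518) passed in 6, NARS1 (-0.23, adjusted p = 0.0777) in 5, IARS1 in 4 and ASNS in 2. The difference itself, progestin plus doxycycline against progestin, passed for none of CTH, VLDLR, IARS1 and EPRS1, with 0.22 for CTH and 0.08 for VLDLR (adjusted p = 0.565 and 0.884).

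Other genes of these pathways were taken from lists chosen with earlier results of these data known. Their counts stand beside the 13.4% higher and 15.6% lower of all probe sets in progestin against vehicle, and no list was tested as a whole. Of 24 other ATF4 targets, 6 rose (25%) and 2 fell (8.33%). Called or not, 12 of the changes were positive and 12 negative, with a median of -0.0021. NIBAN1 rose by 2.35 and GDF15, a secreted stress cytokine, by 1.87, KLHL24 by 0.90 and VEGFA, the vascular growth factor, by 0.47 (adjusted p from 1.11e-05 to 0.00264). With vehicle, NIBAN1 was at 5.88, 6.05 and 5.47 and GDF15 at 5.55, 6.44 and 5.17. These vehicle signals lay near those of markers of other cells such as PECAM1 and VIM. Whether they were above background was not tested. Of 16 genes for eIF2, its exchange factor, its kinases and their regulators, 1 rose (6.25%) and 2 fell (12.5%), shares below those of all probe sets. EIF2AK2, the kinase PKR that senses double-stranded RNA, rose by 1.20 (adjusted p = 2.68e-05), while EIF2AK4, the amino acid sensor GCN2, fell by 0.47 (adjusted p = 0.00164). EIF2S1, the phosphorylated subunit of eIF2, fell by 0.26 (adjusted p = 0.0338).

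Of 14 other folate enzymes and carriers, 0 rose and 3 fell (21.4%). TYMS, the thymidylate synthase, fell by 1.90, GGH, which trims folate polyglutamates, by 0.92 and ATIC, of purine synthesis, by 0.85 (adjusted p = 9.77e-06, 2.11e-04 and 9.09e-05). Of 11 genes of the methionine cycle and of taurine synthesis, 3 rose (27.3%) and 1 fell (9.09%). GNMT, which uses S-adenosylmethionine to methylate glycine, was at 11.13, 11.22 and 11.02 with progestin plus doxycycline, 11.20, 11.19 and 11.24 with progestin and 5.66, 5.67 and 5.52 with vehicle. The vehicle arrays were more than 5 log2 units lower, and the change with progestin was 5.59 ± 0.0791 (adjusted p = 2.32e-08). The vehicle signal lay near that of markers of other cells such as PECAM1 and VIM, and whether it was above background was not tested, so this difference of signals is not given as a fold of RNA. The other genes called there were CSAD (0.95), MAT2B (0.31) and AHCY (-0.35).

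Of 12 other genes of nonessential amino acid metabolism, 5 rose (41.7%) and 2 fell (16.7%), with GLUL, the glutamine synthetase, at 0.77, and the proline-degrading enzymes ALDH4A1 at 0.77 and PRODH at 0.63, and with OAT at -0.30. Of 13 other cytosolic synthetases and their scaffold proteins, 2 rose (15.4%) and 6 fell (46.2%), with QARS1 at -0.50, LARS1 at -0.42, FARSB at -0.41 and KARS1 at -0.34. Of 16 mitochondrial synthetases, 1 rose and 1 fell (6.25% each, below the shares of all probe sets), with changes of 0.55 in MARS2 and -0.59 in SARS2. Among the luminal markers 3 of 12 rose and 4 fell, and among markers of other cells 3 of 16 rose and 2 fell.

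**Figure D5:**
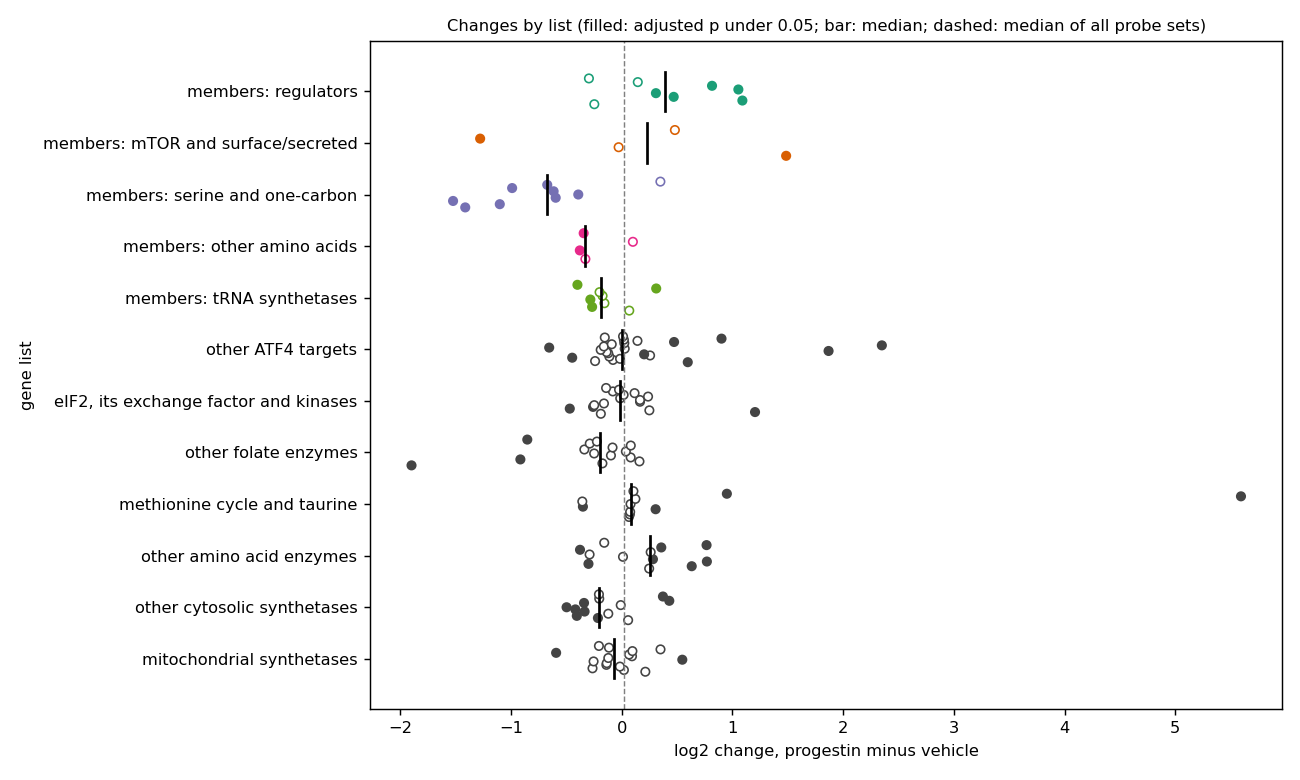
Log2 change with progestin against vehicle (x axis) of each measured gene in the gene lists (lines), with filled points for adjusted p under 0.05. The serine and one-carbon enzymes lie below 0 except CTH, and GNMT stands alone at 5.59. The synthetases lie between -0.59 and 0.55, most of the cytosolic ones below 0.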

How the data were processed

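RNA was hybridised to Affymetrix HuGene 1.0 ST arrays, 1 sample per array. The authors' deposited table holds 1 log2 value per probe set and array, and the log2 scale was inferred from their range. The submitters' processing notes name limma, PLIER, Affymetrix Expression Console and Affymetrix Power Tools. What each tool did, the background correction, the normalization and the genome build are not given in the sources used here. Precision is limited by the number of arrays.

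Of 33297 probe sets, 19460 carry 1 gene symbol in the platform annotation, 1754 several and 12083 none. The 21214 with a symbol were fitted with limma 3.58.1 in R 4.3.3, 1 mean per group over all 9 arrays with moderated variances (lmFit, eBayes), and p values were Benjamini-Hochberg adjusted over all of them. SE is the standard error in this fit. The fit was also run on simulated data with noise drawn independently for each probe set and array. Such data hold no shift shared by many genes of an array, so calls under such shifts were not tested. The p values of the fit to the deposited values reflect the spread between arrays of a group, described as independent experiments.

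All measured genes of the list are given, with ELF5 and PGR, and of each other list up to 4 genes with the smallest p past the threshold in progestin against vehicle. The genes and lists were chosen with earlier results of these data known. Promoter windows came from RefSeq (GRCh38.p14) by symbol.

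The titles number the replicates in each group, and the main fit did not pair arrays by number. Deviations of arrays from their group means were correlated over the probe sets with a mean signal above the median. For same-numbered arrays the correlations lay between -0.26 and 0.48 over 9 pairs of arrays. Those of other pairs lay between -0.51 and 0.28. Between vehicle and progestin plus doxycycline, same-numbered arrays correlated at -0.10, 0.48 and 0.46 for replicates 1, 2 and 3. Crossed pairs of replicates 2 and 3 of these groups gave -0.49 and -0.51. Same-numbered pairs with an array of progestin alone lay between -0.26 and 0.11. Rank correlations over all probe sets tested, between vehicle and progestin plus doxycycline, were 0.35 for replicate 2 and 0.35 for replicate 3. The crossed pairs of these replicates gave -0.34 and -0.41. Whether arrays of the same number share an experiment was not tested. In all, 19 other settings were run: quantile normalization, median centring, 16 added to the linear values, leaving out the dimmest 25% of probe sets, a variance trend with robust estimation, array weights, only the groups compared, the replicate number as a block, the mean of a gene's probe sets, all probe sets of the table, and each array left out in turn.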

Additional observations from a re-analysis of the deposited data

How the results depend on the processing

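In progestin against vehicle, leaving out 1 array in turn gave 5 to 7 of the 33 genes higher and 9 to 19 lower, with 19 without vehicle replicate 3 and 9 without vehicle replicate 1 or 2. In progestin plus doxycycline against vehicle it gave 6 to 9 higher and 10 to 13 lower, and in progestin plus doxycycline against progestin 0 in either direction. The variance trend with robust estimation called 2 genes higher in the last comparison, and the cause was not tested. Array weights, which were 7.17 for vehicle replicate 1, 0.318 for vehicle replicate 3 and at most 1.84 for the other arrays, so that the vehicle mean rested largely on replicate 1, called 8 genes higher and 20 lower in progestin against vehicle. With the replicate number as a block, the counts were 7 higher and 13 lower in progestin against vehicle, 9 and 11 in progestin plus doxycycline against vehicle, and 0 with doxycycline against progestin alone. Leaving out the vehicle replicate 3 array added ASNS (-0.42) to the lower genes in progestin plus doxycycline against vehicle. Apart from the variance trend with robust estimation, the shares of all probe sets called in the same settings are not given here.

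Over the 33 genes and 19 settings, 2 of 627 log2 changes turned sign in progestin against vehicle, 22 of 627 in progestin plus doxycycline against progestin and 7 of 627 in progestin plus doxycycline against vehicle. None of these passed the test in either setting, and the cause was not tested. In progestin plus doxycycline against progestin, quantile normalization gave -0.0174 for CEBPB, -0.057 for PHGDH, -0.0285 for MTHFD1, -0.00868 for MTHFD2 and -0.0207 for PYCR1. Median centring gave -0.0226 for PHGDH, array weights gave -0.0228 for PHGDH and -0.00474 for MTHFD1, and the mean of the probe sets gave 0.0557 for PSPH. In progestin plus doxycycline against vehicle, median centring gave -0.023 for GARS1 and the mean of the probe sets gave 0.00832 for ATF4. Leaving out 1 array in turn gave ranges that cross 0. They were SESN2 -0.187 to 0.11 for progestin against vehicle. For progestin plus doxycycline against progestin they were PPP1R15A -0.0466 to 0.0225, NARS1 -0.0819 to 0.0216, VLDLR -0.0538 to 0.181, PHGDH -0.0917 to 0.0566, PSPH -0.196 to 0.0611, SHMT1 -0.14 to 0.0079, MTHFD1 -0.00737 to 0.0609, PYCR1 -0.0243 to 0.0768 and GOT1 -0.0472 to 0.0237, and against vehicle EPRS1 -0.0755 to 0.0212, CHAC1 -0.415 to 0.000433 and GARS1 -0.0164 to 0.0863.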
